A study of Mus musculus with 24 samples.

Results

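Rassf2, Akap5 and Gm49394 are 3 of the 41549 genes counted by mRNA sequencing of dispersed mouse pancreatic islet cells, and they were chosen by symbol for a strong response to palmitate. Rassf2 was higher with palmitate (PA), whereas Akap5 and Gm49394 were lower. All 3 passed the filter on low counts, as did 15916 genes in all. Because the PA response chose these genes, their PA differences are given as a description, with standard errors and without a p-value. The αGlu effect over both treatments and the difference between batches were not used in the choice and were tested. The αGlu effect in BSA or in PA alone was tested as well, but it reuses libraries of the contrasts that chose the genes.

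Islet cells of wild type mice were transfected with 50 pmol of a control antisense oligonucleotide (Ctr ASO) or of one directed against the glutamate tRNA-derived fragment 5′tRF-Glu(CTC) (αGlu ASO). They were then kept for 48 h with 0.75% BSA, the carrier of the fatty acid, or with 0.5 mM PA. The combinations gave 4 groups, named here by ASO and treatment (Ctr BSA to αGlu PA), with 6 libraries each, and the labels place 3 libraries of each group in each of 2 batches. The libraries held 18214719 to 35001979 counts on genes. A bulk library cannot tell a change in RNA per cell from a change in the share of cells that carry it.

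RASSF2 is a Ras association domain protein that binds, through its SARAH domain, the MST kinases at the head of the Hippo pathway. In that pathway the MST and LATS kinases hold the coactivators YAP and TAZ outside the nucleus, and TEAD proteins carry YAP and TAZ to target genes such as Ccn1, Ccn2 and Ankrd1. AKAP5 is an A-kinase anchoring protein of the plasma membrane that holds protein kinase A, protein kinase C and the phosphatase calcineurin close to calcium channels and adenylyl cyclases. In β-cells, cAMP and calcium are the main signals for insulin release. Gm49394 is a predicted gene with no described role. Its annotated transcript starts upstream of Igf2, the imprinted gene of insulin-like growth factor 2, and shares exons with that gene.

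In GRCm38 with the GENCODE M21 annotation, Rassf2 (ENSMUSG00000027339) lies on the minus strand at chr2:131989415-132030258 and has 5 transcripts. Akap5 (ENSMUSG00000021057) lies on the plus strand at chr12:76324891-76334153 and has 3 transcripts. Gm49394 (ENSMUSG00000115302) lies on the minus strand at chr7:142650769-142669942, with 1 transcript of 5 exons. Only its first 2 exons, of 1142 bases, are its own on that strand, and they hold all 1038 coding bases. The other 3 exons, of 3596 bases, are exons of Igf2 as well, which makes 75.9% of the Gm49394 transcript and 62.8% of the 5723 exonic bases of Igf2. The own exons are also overlapped on the opposite strand by Igf2os, over 1142 bases. The sequence below is the junction of those own exons, 60 bases on each side, and it is shown because it is in the Gm49394 transcript and not in an Igf2 exon. Exon 1 is in lower case (chr7:142669621-142669680, minus strand) and exon 2 in capitals (chr7:142668253-142668312).
Gm49394 junction: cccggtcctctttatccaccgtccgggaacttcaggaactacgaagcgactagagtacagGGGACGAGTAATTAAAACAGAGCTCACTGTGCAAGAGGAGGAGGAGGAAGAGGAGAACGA

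**Figure D1:**
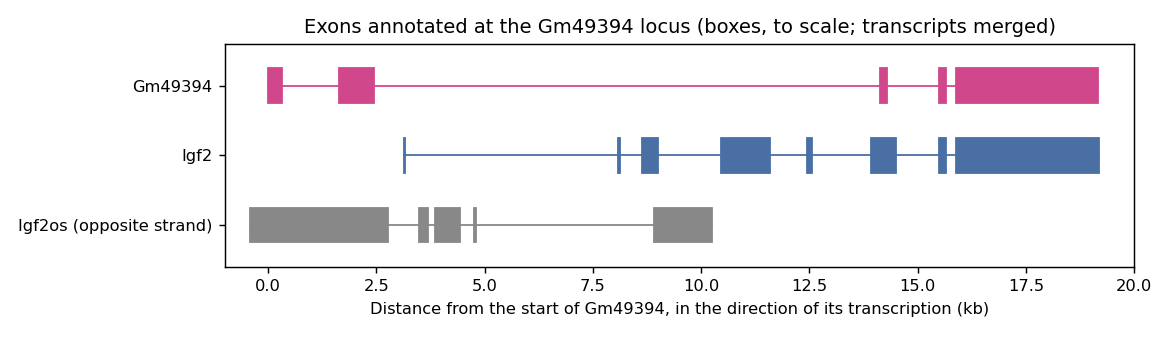
Exons of Gm49394, Igf2 and Igf2os, with the distance in kb from the start of Gm49394 on the horizontal axis and each gene on its own line; boxes are exons with transcripts merged. The first 2 boxes of Gm49394 match no Igf2 box, and the last 3 lie within Igf2 boxes.

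RefSeq promoters (GRCm38.p6) were matched for 2 of the 3 genes, Rassf2 and Akap5. The 250 bases before the RefSeq start of each are shown because these genes moved in opposite directions with PA and their windows differ in composition. For Rassf2 this start lies upstream of the GENCODE start given above. Distances below are counted from the RefSeq start, and other annotated starts were not searched. Capitals mark matches to any of 4 motifs searched on both strands. The half-site of nuclear receptors was searched as AGGTCA. The half-site of the cAMP response element was searched as TGACG. The GC box was searched as GGGCGG and the TATA box as TATAAA. No match overlapped another.
Rassf2 (chr2:132030325-132030574, minus strand): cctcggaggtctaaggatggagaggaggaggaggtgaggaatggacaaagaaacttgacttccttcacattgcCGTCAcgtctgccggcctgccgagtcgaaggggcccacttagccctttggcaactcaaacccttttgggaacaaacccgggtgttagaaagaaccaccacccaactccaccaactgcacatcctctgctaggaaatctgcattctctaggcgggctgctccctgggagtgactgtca
Akap5 (chr12:76324641-76324890, plus strand): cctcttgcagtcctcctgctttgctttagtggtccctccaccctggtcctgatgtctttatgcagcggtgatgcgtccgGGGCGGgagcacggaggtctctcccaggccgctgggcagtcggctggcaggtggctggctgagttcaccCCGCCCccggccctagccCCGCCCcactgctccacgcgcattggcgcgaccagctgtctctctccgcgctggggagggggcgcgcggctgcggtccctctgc

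The Rassf2 window held 1 cAMP response element half-site, on the opposite strand with its first printed base 177 bases before the start, and none of the other 3 motifs. The Akap5 window held 3 GC boxes, at 171, 102 and 84 bases before the start, and no other motif. Among 32851 promoter windows of the same length, 17.8% held the cAMP half-site, 32.7% a GC box, 14% the nuclear receptor half-site and 12.4% the TATA box. The GC content was 55.2% for Rassf2 and 70% for Akap5, against a median of 52.4% over all windows. A match of letters is a description and not a binding site.

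Rassf2 was higher in every PA library than in any BSA library. With the Ctr ASO, its level ran from 12.95 to 23.7 CPM (counts scaled to library size with the TMM method of edgeR) in BSA, with a median of 16.3, and from 37.3 to 52.6 with a median of 42.1 in PA. With the αGlu ASO, it ran from 13.8 to 25.1 in BSA, with a median of 18.1, and from 36.6 to 51.3 with a median of 43.1 in PA. No PA library overlapped a BSA library, and the lowest PA library stood 1.46 times above the highest BSA library. The same holds for Akap5 and Gm49394 in the lower direction, and for 2.63% of all tested genes in either direction.

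The mean of Rassf2 was 17.7 ± 5.04 CPM in Ctr BSA and 43.7 ± 6.99 in Ctr PA (SD, n = 6). The PA difference was 1.33 log2 units (SE 0.0713) with the Ctr ASO and 1.22 (SE 0.0707) with the αGlu ASO, or 2.51-fold and 2.33-fold. Most of the spread within a group was between batches. Batch 1 libraries of Ctr BSA ran from 12.95 to 14.1 CPM and those of batch 2 from 18.6 to 23.7, without overlap. The PA difference with the Ctr ASO was 1.48 (SE 0.0761) in batch 1 and 1.18 (SE 0.104) in batch 2, and that with the αGlu ASO was 1.33 and 1.11.

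**Figure D2:**
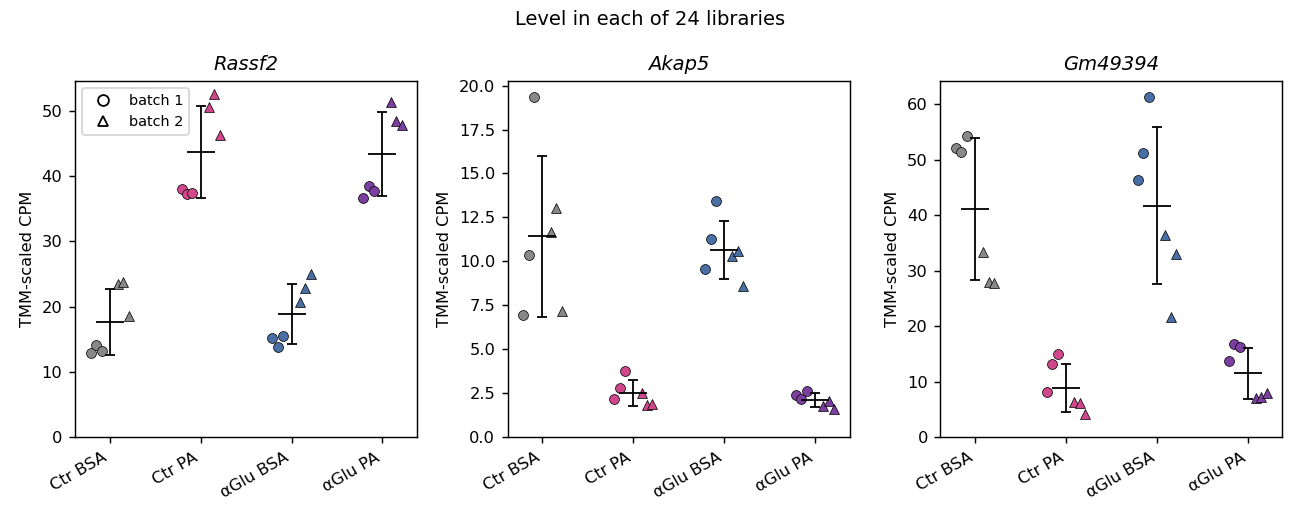
TMM-scaled CPM of Rassf2, Akap5 and Gm49394 (vertical axes, linear) in the 24 libraries by group (horizontal axis); circles are batch 1, triangles batch 2, and the bar with whiskers is the mean ± SD of 6 libraries. The PA libraries stand above the BSA libraries for Rassf2 and below them for the other 2 genes, and batch 2 is higher for Rassf2 and lower for Gm49394.

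Akap5 was lower in every PA library than in any BSA library. Its level with the Ctr ASO ran from 6.96 to 19.4 CPM in BSA, with a median of 11.03, and from 1.83 to 3.79 with a median of 2.35 in PA. With the αGlu ASO, it ran from 8.60 to 13.4 in BSA, with a median of 10.4, and from 1.61 to 2.65 with a median of 2.10 in PA. In PA, Akap5 was thus a gene of few reads, with 40 to 95 counts per library.

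The mean of Akap5 was 11.4 ± 4.58 CPM in Ctr BSA and 2.50 ± 0.735 in Ctr PA (SD, n = 6). The PA difference was -2.21 log2 units (SE 0.199) with the Ctr ASO and -2.34 (SE 0.201) with the αGlu ASO, which are 4.63-fold and 5.06-fold lower levels. Its relative spread in Ctr BSA, with a coefficient of variation of 40.1%, was the widest of the 3 genes in that group. The highest value, 19.4 CPM, came from the Ctr BSA library S9. That library also held the highest summed levels of acinar and of ductal cell markers in its group. S9 was also the highest Ctr BSA library for Gm49394 (54.2 CPM) and Igf2 (34.5 CPM). In the other 3 groups different libraries led for Akap5 (S10, S11 and S12) and for the acinar and ductal markers (S6, S7 and S8). A link between acinar or ductal content and the level of Akap5 was not tested. Without S9 the PA difference with the Ctr ASO was -2.03.

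Gm49394 was lower in PA as well. With the Ctr ASO, it ran from 27.8 to 54.2 CPM in BSA, with a median of 42.3, and from 4.26 to 14.99 with a median of 7.29 in PA. With the αGlu ASO, it ran from 21.7 to 61.3 in BSA, with a median of 41.4, and from 7.10 to 16.7 with a median of 10.9 in PA. The 2 treatments did not overlap, and the closest libraries were 1.30 times apart. Within each batch the gap was wider, at least 2.70 times with either ASO.

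The mean of Gm49394 was 41.1 ± 12.7 CPM in Ctr BSA and 8.87 ± 4.28 in Ctr PA (SD, n = 6). The PA difference was -2.25 log2 units (SE 0.137) with the Ctr ASO and -1.89 (SE 0.134) with the αGlu ASO, 4.76-fold and 3.71-fold lower. These counts cannot be separated from those of Igf2 with certainty. The gene length implied by the deposited TPM and count values was 4738 bases for Gm49394, its whole transcript with the shared exons, and the sources used here do not give how reads on shared exons were divided.

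Igf2 itself was measured at 18.2 ± 9.38 CPM in Ctr BSA and 11.2 ± 4.32 in Ctr PA. Its PA difference was -0.65 with the Ctr ASO (edgeR adjusted p = 0.0938) and -1.06 with the αGlu ASO (adjusted p = 0.00927), so it fell past the threshold with the αGlu ASO and missed it with the Ctr ASO. Its difference between ASOs in PA was -0.62 (adjusted p = 0.993), opposite in sign to the 0.38 of Gm49394. With the Ctr ASO, the Gm49394 share of the 2 genes' counts ran from 61.1 to 82.1% in BSA and from 23.8 to 55.2% in PA. Under the αGlu ASO it ran from 61.98 to 81.7% in BSA and from 48.4 to 74.8% in PA. The share was thus lower in every Ctr PA library than in any Ctr BSA library, while the αGlu groups overlapped.

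When the counts of both genes were summed, a calculation added after the data were seen, the PA difference was -1.56 (SE 0.142) with the Ctr ASO and -1.61 (SE 0.142) with the αGlu ASO. The summed level went from 59.3 ± 20.9 CPM in BSA to 20.1 ± 7.51 in PA with the Ctr ASO, and from 57.1 ± 20.8 to 18.8 ± 7.35 with the αGlu ASO. The sum shows that the 2 genes together were lower in PA. It does not show how Gm49394 alone would stand under another division of the shared reads, and no count of its own exons alone was analysed here.

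**Figure D3:**
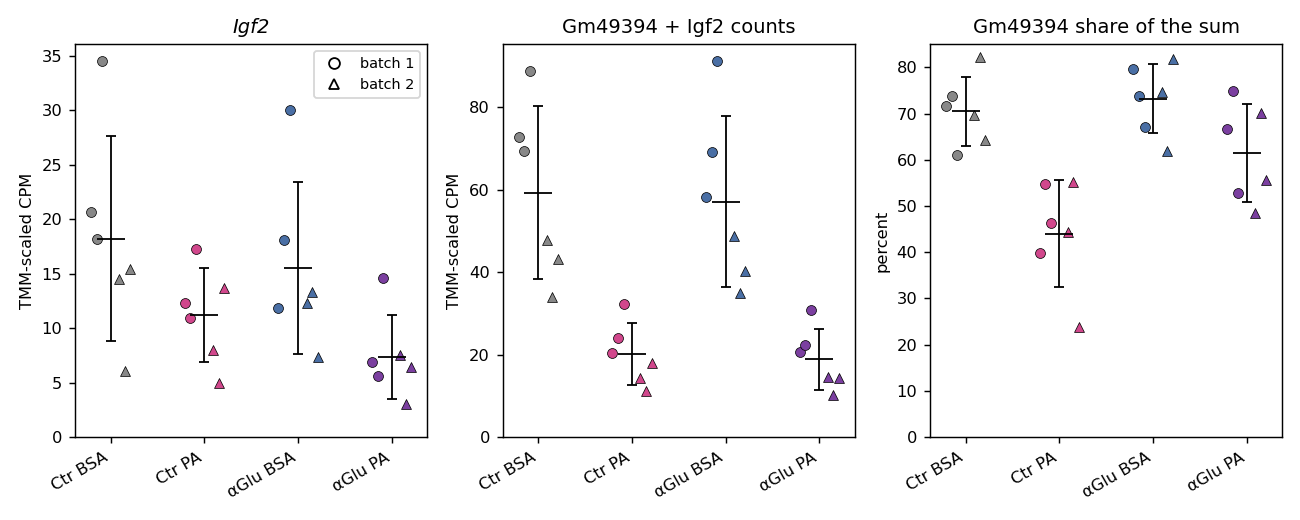
Igf2 CPM, the CPM of the summed Gm49394 and Igf2 counts, and the Gm49394 share of that sum in percent (vertical axes) in each library by group (horizontal axes); circles are batch 1, triangles batch 2, and whiskers the SD around the mean of 6. The sum is lower with PA under both ASOs, and the share spans 23.8 to 55.2% in Ctr PA and 48.4 to 74.8% in αGlu PA.

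Per length, on the deposited TPM scale, the 3 genes changed order with the treatment. In Ctr BSA the mean level was 23.3 ± 7.41 TPM for Gm49394, 4.62 ± 2.10 for Akap5 and 4.01 ± 1.32 for Rassf2. Akap5 and Rassf2 did not differ there beyond their spread. In Ctr PA, Rassf2 stood at 10.2 ± 1.51 TPM, Gm49394 at 5.33 ± 2.73 and Akap5 at 1.03 ± 0.338. Among genes above 0 TPM, the percentile of Rassf2 went from 51.9 in Ctr BSA to 62.7 in Ctr PA, that of Akap5 from 53.3 to 39.3 and that of Gm49394 from 78.9 to 54.01. The αGlu groups followed the same order, with 25.3, 4.43 and 4.40 TPM in BSA for Gm49394, Akap5 and Rassf2, and 10.1, 6.98 and 0.877 in PA for Rassf2, Gm49394 and Akap5.

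In the unpaired fit, the ASO moved none of the 3 genes past the threshold. The study's methods state that the groups of a replicate shared an animal or passage, but the labels do not say which libraries belong together, so such a shared effect stays in the error. Over both treatments, the αGlu minus Ctr difference was 0.04 for Rassf2 (95% interval -0.06 to 0.15), -0.17 for Akap5 (-0.46 to 0.11) and 0.20 for Gm49394 (0.01 to 0.39), each with an adjusted p of 0.9998 (edgeR quasi-likelihood test with Benjamini-Hochberg adjustment over all genes). In that comparison 0.239% of all tested genes passed. For Gm49394 in PA the difference was 0.38 (SE 0.139), with an unadjusted p of 0.0112 and an adjusted p of 0.993, and it was 0.36 in batch 1 and 0.41 in batch 2. For the summed counts of Gm49394 and Igf2 it was -0.10 (SE 0.143). Another division of the shared reads was not tested. The comparisons in PA alone and in BSA alone reuse libraries of the contrasts that chose the genes. Their p-values are therefore not free of that choice. In BSA alone the differences were 0.10, -0.11 and 0.02 for Rassf2, Akap5 and Gm49394 (adjusted p above 0.99 for each). No gene of 15916 passed in BSA or in PA alone by edgeR. At an unadjusted p below 0.05 there were 461 and 538 such genes, and DESeq2 called 8 and 30, none of them one of these 3 at its adjusted threshold.

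The PA differences under both ASOs had the same sign for each gene, and they lay farthest apart for Gm49394. The αGlu response minus the Ctr response was -0.11 for Rassf2 (95% interval -0.31 to 0.10), -0.13 for Akap5 (-0.70 to 0.44) and 0.36 for Gm49394 (-0.03 to 0.75), given without a p-value since each contains the contrasts that chose the genes. The intervals are narrow for Rassf2 and leave room for differences of over 0.4 log2 units for the other genes.

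Batches differed in level for Rassf2 and Gm49394, in opposite directions. Batch 2 minus batch 1 was 0.52 log2 units for Rassf2 (SE 0.0498, adjusted p = 4.00e-09) and -0.94 for Gm49394 (SE 0.0939, adjusted p = 9.44e-09), by edgeR. For Akap5 it was -0.32 (SE 0.138, adjusted p = 0.0568), and DESeq2 gave -0.33 with an adjusted p of 0.0412. A difference between batches was called for 51.5% of all tested genes. Of the sum of squares of log2 CPM over the 24 libraries, PA took 83.2% for Rassf2, 90.8% for Akap5 and 78.4% for Gm49394, and batch took 14.2, 1.64 and 16.4%. The ASO took under 1% for each gene.

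Among the other 9 RASSF family genes, 3 passed the test for PA with the Ctr ASO (33.3%, against 30% of all tested genes), 1 higher and 2 lower. Of all tested genes, 15.5% were called higher and 14.5% lower. Rassf4, another SARAH domain protein, rose by 0.59 (adjusted p = 1.95e-06) from 42.02 to 62.4 CPM. Rassf5, which links Rap1 to MST1 in lymphocytes, changed by -0.57 (adjusted p = 0.00110). Rassf9, at only 1.47 CPM in Ctr BSA and 0.765 in Ctr PA, changed by -1.0005 (adjusted p = 0.0112). Rassf1, the best known tumour suppressor of the family, was at -0.23 (adjusted p = 0.0630). With the αGlu ASO 3 passed again, 1 higher and 2 lower, where 28.5% of all tested genes did, 14.4% higher and 14.2% lower. Without the batch term the counts were 0 and 1. For fits without that term or of a single batch, here and below, the share of all tested genes called is not given. Counts from such fits therefore have no background beside them. The median over the 9 genes was -0.10 with the Ctr ASO, beside 0.01 over all tested genes. None of the 9 had a PA difference of the size of Rassf2 in the upward direction.

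Of 24 genes of Ras and the MST/Hippo pathway, 16 passed with the Ctr ASO, 2 higher and 14 lower (66.7% called, against 30% of all tested genes), and 14 with the αGlu ASO, all lower (58.3%, against 28.5%). The median difference was -0.47 with the Ctr ASO and -0.59 with the αGlu ASO. The list was chosen with earlier results of these data known, so its share is a description and not a test of the pathway. By a fold above 2 with an unadjusted p below 0.05, the counts were 6 and 7, where 5.91% and 5.57% of all tested genes passed. Counts were smaller in a single batch, with 5 called in batch 1 and 11 in batch 2 with the Ctr ASO. When batch was left out of the fit, 4 were called. The 30 and 28.5% are shares of the main fit and do not apply to these counts. The kinases that bind RASSF2 moved little. Stk3 (MST2) rose by 0.36 (adjusted p = 0.0160), and Stk4 (MST1) was at 0.00 (adjusted p = 0.961). The 3 genes that fell most were targets of YAP and TAZ.

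Ankrd1, encoding a cardiac ankyrin repeat protein, changed by -2.55 (SE 0.346) from 55.7 ± 22.3 to 9.65 ± 5.17 CPM. Ccn2, the connective tissue growth factor, changed by -2.07 (SE 0.209) from 286 ± 83.2 to 65.9 ± 25.6 CPM. Ccn1, a matricellular protein of the same family, changed by -1.85 (SE 0.248). The coactivators Yap1 (-0.56, adjusted p = 0.0384) and Wwtr1 (TAZ, -0.81, adjusted p = 0.00530) and the kinase Lats2 (-0.78, adjusted p = 1.48e-04) fell with the Ctr ASO as well, whereas Lats1 was at 0.01 (adjusted p = 0.966).

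**Figure D4:**
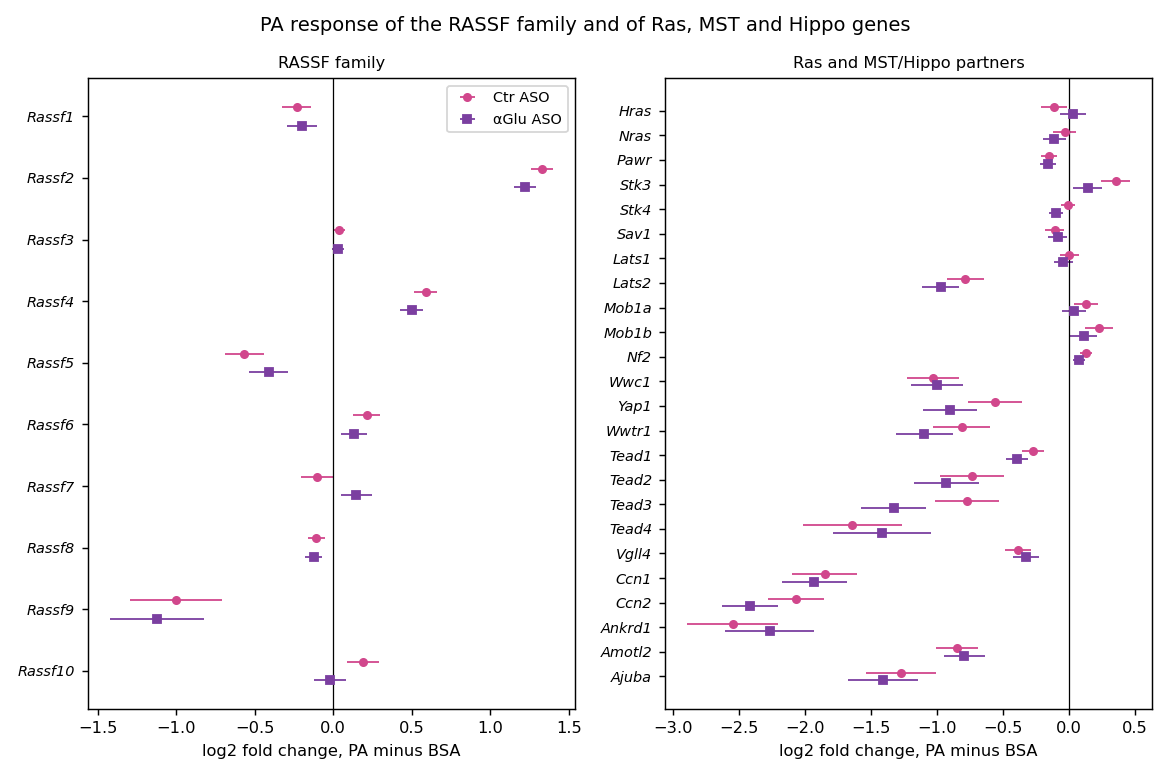
PA minus BSA log2 fold change (horizontal axes) of the RASSF family and of Ras, MST and Hippo genes (1 gene a line), with the Ctr ASO as circles and the αGlu ASO as squares; whiskers are standard errors of the edgeR fit. Rassf2, at 1.33 and 1.22, stands to the right of its family, and Ankrd1, Ccn2 and Ccn1 stand farthest to the left.

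Of the 11 other AKAP genes that passed the filter, 3 passed the test with the Ctr ASO, all lower, or 27.3%, against 30% of all tested genes. Akap12 (gravin), another scaffold of protein kinase A and protein kinase C, changed by -1.31 (SE 0.218, adjusted p = 7.13e-05) from 21.4 to 8.29 CPM. Akap13 and Akap8 changed by -0.27 and -0.24. Under the αGlu ASO 4 passed (36.4%, against 28.5% of all tested genes), 3 lower and Akap6 higher by 0.40 (adjusted p = 0.0246). With the Ctr ASO the share was no larger than over the whole table, so the members are given singly. The median was -0.01 with the Ctr ASO and -0.07 with the αGlu ASO.

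Of 34 genes for proteins that AKAP5 is known to hold or act on, 9 passed with the Ctr ASO, 4 higher and 5 lower (26.5%, against 30% of all tested genes), and 7 with the αGlu ASO, 1 higher and 6 lower (20.6%, against 28.5%). The list thus held no larger share of called genes than the whole table, and the members below are given singly. The counts were 5 and 6 without the batch term, 5 and 2 in batch 1 and 3 and 1 in batch 2. The median was -0.01 and -0.02. The calcium entry channel gene Trpv4 changed most, by -2.26 (SE 0.316, adjusted p = 8.51e-06), from 3.21 ± 0.950 to 0.634 ± 0.308 CPM. Nfatc4 and Nfatc2, transcription factors activated by calcineurin, changed by -1.45 and -0.58. Nfatc4 had few reads, at 1.77 CPM in Ctr BSA and 0.639 in Ctr PA. Adcy5, an adenylyl cyclase, changed by -0.88 (adjusted p = 0.00542), and Adcy8, a cyclase that calcium stimulates, rose by 1.02 (adjusted p = 0.00105). Both were low, at 2.52 and 1.07 CPM in Ctr BSA and 1.35 and 2.19 in Ctr PA. The subunit genes Prkacb and Prkar2b of protein kinase A and Ppp3cb of calcineurin rose by 0.25, 0.22 and 0.32 with the Ctr ASO. The calcium channel genes Cacna1c (-0.15, adjusted p = 0.123) and Cacna1d (0.01, adjusted p = 0.923) did not pass.

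Of 14 genes that cAMP and calcium induce, 11 passed with the Ctr ASO, 2 higher and 9 lower (78.6%, against 30% of all tested genes), and 12 with the αGlu ASO, 2 higher and 10 lower (85.7%, against 28.5%). Among all tested genes 14.5 and 14.2% were called lower. This list too was chosen with earlier results of these data known, so its share is a description and not a test. The differences were small, and by a fold above 2 the counts were 0 and 0. Without the batch term 7 passed with either ASO. The median was -0.36 and -0.44. Nr4a1, an immediate early nuclear receptor, changed by -0.84 (adjusted p = 7.02e-06), the clock gene Per1 by -0.70 (adjusted p = 1.03e-07) and the kinase gene Sik1 by -0.50 (adjusted p = 8.84e-06). Ppargc1a, a coactivator of oxidative metabolism, rose by 0.93 (adjusted p = 2.60e-04) and Crem, a cAMP-responsive repressor and activator, by 0.31 (adjusted p = 0.00297). No gene of these lists passed for the ASO, in BSA, in PA or over both, by edgeR.

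The genes whose profile over the 24 libraries was most like that of Rassf2 were Acat1, Hpgds, Aldh9a1, Dcaf12l1 and Pxmp4, at a root-mean-square difference of 0.160 to 0.218 log2 units, against a median of 0.743 over all tested genes. Acat1 encodes a mitochondrial thiolase of ketone body and isoleucine breakdown, Hpgds a prostaglandin D synthase, Aldh9a1 an aldehyde dehydrogenase of carnitine synthesis and Pxmp4 a peroxisomal membrane protein. The same 5 genes were the closest when each gene was centred within its batch. The profiles, here and for the other 2 genes below, hold the PA difference that chose the genes. Other strong PA responders of the same direction therefore lie close, and the distances are a description. Of a list of 10 known fatty acid responsive genes, 9 rose with either ASO, where 15.5 and 14.4% of all tested genes were called higher. The list was chosen with earlier results of these data known and holds Aldh9a1 and Pxmp4, so its count is a description and not a test. In that list Cpt1a, which takes fatty acids into mitochondria, rose by 2.18, Plin2, which coats lipid droplets, by 1.42 and Acadvl by 0.86, and Acadm was at 0.11 (adjusted p = 0.296).

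For Akap5 the closest genes were Cntn2, Fgfr2, Ccn2, Icam1 and Tgm2, at 0.381 to 0.485, against a median of 1.20 over all tested genes. Cntn2 encodes a neural adhesion molecule, Ccn2 is a target of YAP and TAZ, Icam1 a leukocyte adhesion molecule, Fgfr2 a growth factor receptor and Tgm2 a transglutaminase. For Gm49394 they were Col4a5, Pdgfb, Akap5, Ccn1 and Pygm, at 0.420 to 0.516, against a median of 1.21. Col4a5 encodes a collagen chain of basement membranes, Pdgfb a growth factor for mesenchymal cells and Pygm the muscle glycogen phosphorylase. Centring within batches retained 1 of 5 for Akap5 and 3 of 5 for Gm49394, with Akap5 then the closest gene to Gm49394.

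Neighbouring genes that passed the filter had small differences or missed the threshold. Beside Rassf2, Slc23a2, a vitamin C transporter gene, was at -0.12 with the Ctr ASO (adjusted p = 0.0906) and fell by 0.21 with the αGlu ASO (adjusted p = 0.00435). Prnd, on its other side, was at -1.11 (adjusted p = 0.171) at a mean of 2.78 CPM. Beside Akap5, Mthfd1 changed by -0.19 (adjusted p = 0.0426) and Zbtb25 was at -0.04 (adjusted p = 0.772). Ins2, an insulin gene 8714 bases from Gm49394, changed by -0.34 with the Ctr ASO (adjusted p = 0.00880) and was at -0.22 with the αGlu ASO (adjusted p = 0.0968).

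The cultures held β-cell markers at a summed level of 84080 to 152100 CPM in all libraries, as the label of pancreatic islet cells asks, along with markers of other cells. With the Ctr ASO, 4 of 5 tested fibroblast and stellate cell markers fell with PA (14.5% of all tested genes were called lower), from a summed level of 65.0 to 411 CPM in Ctr BSA to 6.70 to 41.2 CPM in Ctr PA. The same held for 5 of 7 acinar, 3 of 5 ductal and 7 of 9 macrophage markers, and for 0 of 6 endothelial and 0 of 6 Schwann cell and glial markers. Of the endocrine markers, 3 of 10 β-cell, 1 of 5 α-cell, 1 of 4 δ-cell and 1 of 2 PP cell markers fell. Another 3 of 10 β-cell markers rose, where 15.5% of all tested genes were called higher. Acinar markers ran from 362 to 17210 CPM in Ctr BSA and from 189 to 6836 CPM in Ctr PA. Ductal markers ran from 259 to 529 CPM and from 190 to 457 CPM, and macrophage markers from 78.8 to 374 CPM and from 84.1 to 128 CPM in the same groups. With the αGlu ASO, 3 of 5 fibroblast, 4 of 7 acinar, 3 of 5 ductal and 1 of 9 macrophage markers fell, where 14.2% of all tested genes did. In αGlu BSA the summed fibroblast level ran from 38.95 to 922 CPM, and in αGlu PA from 4.12 to 156 CPM. The αGlu groups thus overlapped, unlike the Ctr groups. Under the αGlu ASO 2 of 10 β-cell and 1 of 4 δ-cell markers fell, and no α-cell or PP cell marker did. Another 3 of 10 β-cell markers rose, where 14.4% of all tested genes were called higher. None of these marker lists had a gene at 0 in every library of a group. No fibroblast, acinar, ductal or macrophage marker rose with either ASO. The part of these 4 cell types in the lower levels of Akap5, Gm49394 and the Hippo genes was not tested.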

How the data were processed

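RNA of dispersed mouse islet cells was sequenced from stranded mRNA libraries, 6 per group. The authors used the QIAGEN RNA-seq Analysis Portal and deposited counts per gene and TPM values; GRCm38 is the build in the submitters' processing notes, and the annotation is not given in the sources used here. Lengths implied by the deposited TPM and counts lay within 2% of GENCODE M21 exon unions for 98.5% of the genes compared (median over libraries). Only genes above a count floor with a GENCODE M21 entry were compared. Library sizes were 18214719 to 35001979 counts. Columns of CPM and RPKM were not used.

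Here, counts were tested with edgeR 4.0.16 in R 4.3.3 (TMM scaling, filterByExpr with a minimum count of 10, quasi-likelihood test), with group and batch as terms over all 24 libraries. A call is a Benjamini-Hochberg adjusted p below 0.05 over 15916 genes. CPM are TMM-scaled, and log2 CPM used a prior count of 2. The table had 1 line without a gene, holding 0 counts, which was left out. The records do not tie libraries to animals, so the p-values measure the spread between libraries. Simulated data with 100 genes changed 2-fold and 100 changed 4-fold gave the same fit a test before use. The 3 genes and all lists (RASSF, Ras and MST/Hippo, AKAP, AKAP5-anchored, cAMP and calcium responsive, fatty acid responsive, cell markers) were chosen with earlier results of these data known, and 1 gene of the lists is not reported here. The named genes are the 3 genes, list members, the 5 closest profiles per gene and neighbours. Alternatives were DESeq2 1.42.0, upper-quartile scaling, other filters, no batch term, single batches, 2 groups alone, a fold rule, each library left out and, added after the data were seen, summed Gm49394 and Igf2 counts and batch-centred profiles.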

Additional observations from a re-analysis of the deposited data

How the results depend on the processing

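No paired analysis was possible because the labels give each library number, S1 to S24, once, and do not say which libraries of different groups share an animal. Upper-quartile scaling, both filter alternatives and fits of the 2 groups alone changed no direction and no call of the 3 genes, and neither did DESeq2 except for the Akap5 batch difference (-0.33, adjusted p = 0.0412). Under these settings list counts moved by at most 1.5 times. With 2 groups alone, the counts with the Ctr ASO went from 16 to 12 (Hippo), from 9 to 6 (AKAP5-anchored) and from 3 to 2 (RASSF), and DESeq2 called 11 AKAP5-anchored genes. Within batches, the Rassf2 PA difference was 1.48 and 1.33 in batch 1 and 1.18 and 1.11 in batch 2 (Ctr and αGlu ASO), and its αGlu effect in PA was 6.76e-04 in batch 1.

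Called genes with the Ctr and αGlu ASO were, without a batch term, 0 and 1 (RASSF), 4 and 6 (Hippo), 7 and 7 (cAMP and calcium) and 5 with the Ctr ASO (AKAP5-anchored). In batch 1 they were 5 and 5 (Hippo), 5 and 2 (AKAP5-anchored), and with the αGlu ASO 1 (RASSF) and 6 (cAMP and calcium). In batch 2 they were 1 and 1 (RASSF), 1 and 2 (AKAP), 3 and 1 (AKAP5-anchored), and with the Ctr ASO 6 (cAMP and calcium). Single batches hold fewer libraries. The share of all tested genes called in a single batch or without a batch term is not given here, so these counts have no background beside them. The cause of the other changes was not tested. A fold above 2 with an unadjusted p gave 1 and 1 (RASSF), 6 and 7 (Hippo), 1 and 1 (AKAP), 3 and 3 (AKAP5-anchored) and 0 and 0 (cAMP and calcium).

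With Igf2 counts added, Gm49394 gave -1.56 and -1.61 for PA, -0.045, -0.10 and -0.074 for the αGlu effect in BSA, in PA and over both, and -0.058 for the difference of PA responses. Centring profiles within batches kept 1 of 5 closest genes for Akap5 and 3 of 5 for Gm49394.

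With each library left out in turn, the αGlu effect ran from -0.042 to 0.014 for Rassf2 in PA, from -0.23 to 0.069 for Akap5 in BSA (0.069 without S9) and from -0.058 to 0.093 for Gm49394 in BSA. The Akap5 batch difference ran from -0.39 to -0.21 (adjusted p 0.00969 to 0.171) and passed the threshold in 5 of these fits, without S1, S2, S3, S5 or S17. The RASSF count with the Ctr ASO ran from 3 to 5, with 5 without S7. Akap5, with 40 to 95 counts per PA library, is the gene most limited by depth.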
